A study of Mus musculus with 9 samples.

Results

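The 9 genes described here encode membrane transporters that carry drugs into or out of cells: the organic cation and carnitine transporters Slc22a2, Slc22a3, Slc22a4 and Slc22a5, and the ATP-driven efflux pumps Abcb1a, Abcc1, Abcc2, Abcc4 and Abcg2. They were taken by gene symbol from the 38926 genes in the count tables, and all 9 were present. Transcripts were counted in whole lumbar dorsal root ganglia, where the somata of hind-limb sensory neurons lie among glia, vessels and connective tissue. The ganglia (L3, L4 and L5, ipsilateral to the injected paws) came from wild-type male C57BL/6 mice of 8 to 10 weeks. There were 3 groups: cisplatin at a cumulative intraplantar dose of 40 µg (n = 3 libraries), oxaliplatin at the same cumulative dose by the same route (n = 3), and vehicle (n = 3). Each library pooled the ganglia of 4 animals, so p-values measure the spread between pools and variation between single animals was not measured. The same 3 vehicle libraries served as the comparison for each drug.

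Organic cation transporters of the SLC22 family are carriers that let positively charged solutes, among them monoamines, metformin and platinum drugs, cross the plasma membrane down their electrochemical gradient; the related OCTN carriers move ergothioneine and carnitine. The ABC pumps use ATP to push drugs and their glutathione or glucuronide conjugates out of the cell, and several of them line the blood-brain and blood-nerve barriers. In sensory ganglia, whose capillaries are leakier than those of nerve or brain, such carriers are studied as routes by which platinum drugs reach or leave neurons and satellite glia. Cisplatin and oxaliplatin share a platinum centre; oxaliplatin carries a diaminocyclohexane carrier ligand and an oxalate leaving group in place of the ammines and chlorides of cisplatin. The doses were matched by mass and not by moles.

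Slc22a2 was higher and Abcc4 lower than vehicle in all libraries of both drugs, and the other members tested overlapped vehicle with at least 1 of the drugs. Over all genes, 48.0% did not overlap vehicle with cisplatin and 50.5% did not with oxaliplatin, in either direction. The share of all genes that did not overlap with both drugs in the same direction was not computed. By the test across all genes, Abcc4 fell with both drugs, to 0.853-fold with cisplatin and 0.865-fold with oxaliplatin. Slc22a2 (1.80-fold) and Abcb1a (1.29-fold) rose with oxaliplatin. In the same tests 38.7% of all genes were called with cisplatin and 41.6% with oxaliplatin. Each call of a member was lost under some of the alternatives given below. Abcc4 turned higher, without a call, when libraries were scaled by their totals alone. Abcg2, not called as reported, was called higher with both drugs after removal of the trend with gene length and GC content. No member was called between the drugs. Abcc2 had 0 to 5 reads per library and was detected throughout no group. The gene start regions of 2 of the 3 members that were called with a drug are given here. They come from RefSeq (GRCm38.p6), are read 5′ to 3′ on the strand of the gene, and stop at the gene start of the GENCODE M21 annotation.

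Slc22a2, chr17:12583939-12584131, plus strand: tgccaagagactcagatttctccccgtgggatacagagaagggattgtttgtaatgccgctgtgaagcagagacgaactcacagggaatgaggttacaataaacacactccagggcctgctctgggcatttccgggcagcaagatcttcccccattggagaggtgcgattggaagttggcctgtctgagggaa

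Abcc4, chr14:118706220-118706469, minus strand: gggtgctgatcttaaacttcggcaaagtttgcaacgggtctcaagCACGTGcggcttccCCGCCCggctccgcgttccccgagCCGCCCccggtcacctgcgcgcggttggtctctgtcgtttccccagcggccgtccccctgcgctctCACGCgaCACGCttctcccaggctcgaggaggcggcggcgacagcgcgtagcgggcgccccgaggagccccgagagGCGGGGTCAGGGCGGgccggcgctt

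Capitals mark matches, on either strand, to motifs that were chosen after the values of the members were seen: the E-box CACGTG, the xenobiotic response element core GCGTG, the antioxidant response element TGACNNNGC, the GC box GGGCGG and the TATA box TATAAA. The 193 bases before Slc22a2 held none of them. The 250 bases before Abcc4 held 1 E-box, 2 xenobiotic response element cores, 1 antioxidant response element and 3 GC boxes, with no TATA box, and no match overlapped another. Among 32851 promoter windows of 250 bases, 6.02% held the E-box, 28.2% the xenobiotic response element core, 10.2% the antioxidant response element, 32.7% the GC box and 12.4% the TATA box. Members that were not called held such matches too. The window of Slc22a4 held 1 E-box, 2 xenobiotic response element cores and 2 GC boxes. That of Slc22a5 held 2 xenobiotic response element cores and 3 GC boxes, and that of Slc22a3 held none of the motifs. A second RefSeq window of Abcc4, inside the gene, held 1 antioxidant response element and no other motif. A match describes the letters only. RefSeq windows were matched for 8 of the 9 members; the window of Abcb1a lies 92986 bases before its GENCODE gene start and is not shown.

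Reads assigned to genes numbered 22819185 to 38808509 per library, and 17348 genes passed the filter on low counts. Levels are read counts scaled to a common library size (CPM) after TMM scaling, which corrects library totals for differences in composition. Vehicle library 2 was unlike the rest, with 74.5% of its recorded reads in no single gene, against 42.8 to 48.7% in the other libraries, and its 10 most abundant genes took 32.9% of gene reads. Reads outside annotated genes made up 18.6 to 19.1% of uniquely aligned reads with cisplatin, 16.6 to 17.8% with oxaliplatin and 26.2 to 47.7% with vehicle. Genes were called at an adjusted p under 0.05 (edgeR quasi-likelihood test, Benjamini-Hochberg over all 17348 genes). Neuronal markers summed to 15353 to 17603 CPM with cisplatin, 16177 to 17049 CPM with oxaliplatin and 16744 to 17945 CPM with vehicle. Of these 8 markers, Rbfox3 and Nefm were called lower with each drug and none higher. Over all genes, 22.9% were called lower with cisplatin and 24.1% with oxaliplatin. The 4 markers of kidney and liver were under 3 reads in every library.

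Of the 8 members tested, 1 was called with cisplatin (Abcc4, lower), where 38.7% of all genes were called, 15.8% higher and 22.9% lower. With oxaliplatin 3 of the 8 were called, Slc22a2 and Abcb1a higher and Abcc4 lower, where 41.6% of all genes were called, 17.5% higher and 24.1% lower. The share of members called was therefore below the background with cisplatin and near it with oxaliplatin. The cisplatin and vehicle libraries did not overlap for 2 members, Slc22a2 (higher) and Abcc4 (lower), against 48.0% of all genes (21.3% higher and 26.7% lower). The oxaliplatin and vehicle libraries did not overlap for 4 members, Slc22a2, Slc22a5 and Abcb1a (higher) and Abcc4 (lower), against 50.5% of all genes (23.1% higher and 27.4% lower). The median log2 fold change of the 8 members was 0.01 with cisplatin and 0.04 with oxaliplatin, against 0.00 for all genes in both comparisons.

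**Figure D1:**
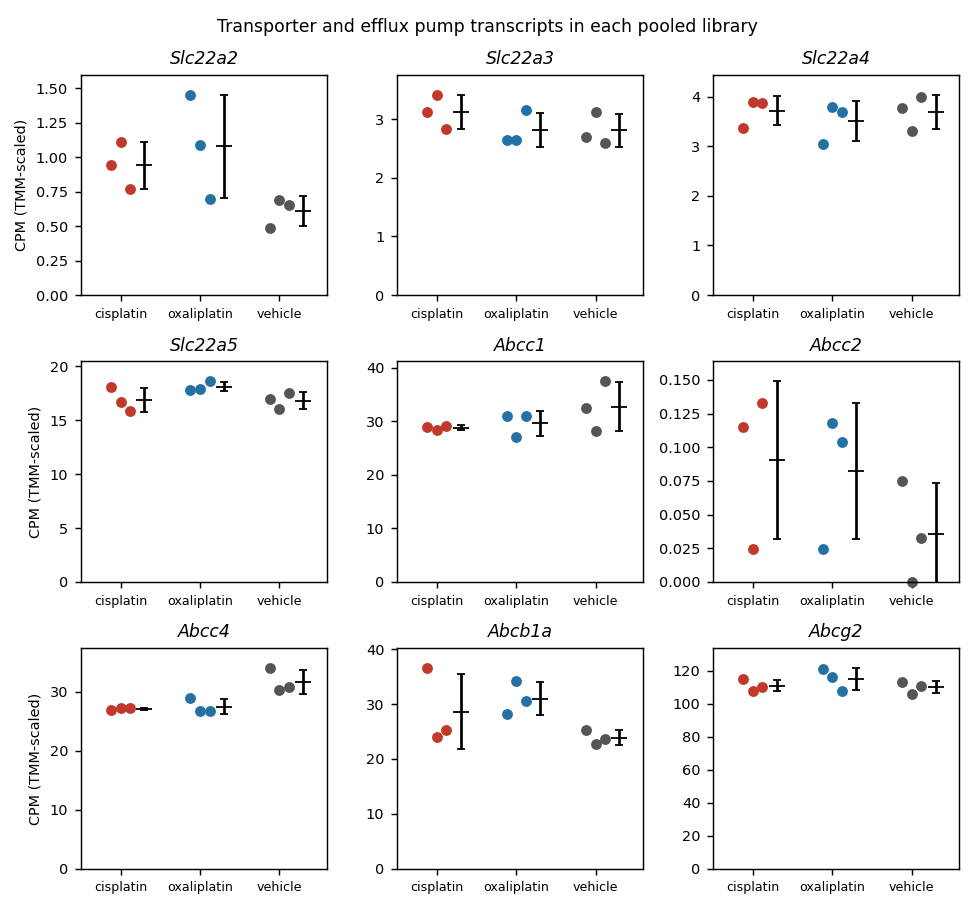
TMM-scaled CPM of the 9 genes in each of the 9 libraries, for cisplatin (left), oxaliplatin (middle) and vehicle (right); points are libraries, and the bar beside them is the mean ± SD (n = 3 pools of 4 animals). Every Abcc4 point of the drug groups lies below every vehicle point, and every Slc22a2 point of the drug groups lies above every vehicle point; in the other panels the drug and vehicle points overlap, except for Slc22a5 and Abcb1a with oxaliplatin.

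Among the uptake carriers, Slc22a2 (ENSMUSG00000040966.10, chromosome 17, 12584132 to 12628488, plus strand, 12 exonic pieces, GRCm38) encodes OCT2, the basolateral organic cation carrier of the kidney proximal tubule, which transports cisplatin and oxaliplatin. It was counted at 33, 46 and 29 reads in the cisplatin libraries, 59, 46 and 27 reads in the oxaliplatin libraries and 13, 11 and 20 reads in the vehicle libraries. These reads corresponded to 0.946, 1.11 and 0.771 CPM with cisplatin, 1.45, 1.09 and 0.699 CPM with oxaliplatin, and 0.487, 0.689 and 0.650 CPM with vehicle. All 6 drug libraries were above all 3 vehicle libraries, although oxaliplatin library 3 exceeded vehicle library 2 by little. The log2 fold change was 0.65 ± 0.31 with cisplatin (SE; 95% interval -0.03 to 1.33, adjusted p = 0.118) and 0.85 ± 0.30 with oxaliplatin (SE; 95% interval 0.18 to 1.51, adjusted p = 0.0417). Counting error was wide at these depths, since 11 reads have an exact Poisson interval of 5.49 to 19.7 reads. The oxaliplatin call was lost in 11 of 20 alternatives, among them limma-voom (adjusted p = 0.0728), DESeq2 (adjusted p = 0.0515) and the fit without oxaliplatin library 1 (log2 fold change 0.61, adjusted p = 0.127).

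The other three carriers were called with neither drug. Slc22a3 (ENSMUSG00000023828.3, chromosome 17, 12418960 to 12507704, minus strand) encodes OCT3, the extraneuronal monoamine carrier. It had 3.12, 3.42 and 2.84 CPM with cisplatin, 2.65, 2.65 and 3.16 CPM with oxaliplatin, and 2.70, 3.13 and 2.6 CPM with vehicle, and the groups overlapped. Its log2 fold change was 0.18 with cisplatin (95% interval -0.12 to 0.47, adjusted p = 0.328) and 0.02 with oxaliplatin (95% interval -0.27 to 0.32, adjusted p = 0.911). It shares 420 exon bases with Plg on the opposite strand, and Plg had at most 1 read in any library.

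Slc22a4 (ENSMUSG00000020334.6, chromosome 11, 53983123 to 54028090, minus strand) encodes OCTN1, the ergothioneine carrier. Its level was 3.38, 3.90 and 3.88 CPM with cisplatin, 3.05, 3.79 and 3.70 CPM with oxaliplatin, and 3.78, 3.32 and 4.0 CPM with vehicle, with overlap in both comparisons. The log2 fold change was -0.00 with cisplatin (95% interval -0.28 to 0.27, adjusted p = 0.983) and -0.09 with oxaliplatin (95% interval -0.37 to 0.19, adjusted p = 0.598).

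Slc22a5 (ENSMUSG00000018900.7, chromosome 11, 53864542 to 53891660, minus strand), the neighbour of Slc22a4, encodes OCTN2, the sodium-dependent carnitine carrier. It was the most abundant of the uptake carriers per length, and had 18.1, 16.7 and 15.9 CPM with cisplatin, 17.8, 17.9 and 18.6 CPM with oxaliplatin, and 17, 16.0 and 17.5 CPM with vehicle. The oxaliplatin libraries lay just above the vehicle libraries, with a log2 fold change of 0.10 (95% interval -0.05 to 0.25, adjusted p = 0.255) that was not called. The cisplatin libraries overlapped them (-0.00, 95% interval -0.15 to 0.15, adjusted p = 0.998). Of its 75-base windows 17.1% also occur in Slc22a21, a neighbouring carnitine carrier gene of the mouse, and reads from those stretches match either gene; Slc22a21 had 2.01 ± 0.394 CPM with cisplatin, 2.28 ± 0.418 CPM with oxaliplatin and 2.21 ± 0.458 CPM with vehicle (SD, n = 3 each).

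Among the efflux pumps, Abcb1a (ENSMUSG00000040584.8, chromosome 5, 8660077 to 8748575, plus strand) encodes one of the mouse P-glycoproteins, the multidrug pump of barrier endothelium. It had 36.5, 24.0 and 25.3 CPM with cisplatin, 28.2, 34.2 and 30.5 CPM with oxaliplatin, and 25.3, 22.8 and 23.6 CPM with vehicle. All 3 oxaliplatin libraries exceeded the vehicle libraries, while with cisplatin library 1 stood high and the other two lay in or near the vehicle range. The log2 fold change was 0.37 ± 0.14 with oxaliplatin (SE; 95% interval 0.07 to 0.67, adjusted p = 0.0473) and 0.25 ± 0.14 with cisplatin (SE; 95% interval -0.05 to 0.55, adjusted p = 0.170). Without cisplatin library 1 the cisplatin value was 0.04, and with no filter on low counts Abcb1a was called with cisplatin (0.29, adjusted p = 0.0373). The oxaliplatin call was lost with limma-voom (adjusted p = 0.0542) and without any 1 of 5 libraries. The lowest log2 fold change among these was 0.29, without oxaliplatin library 2 (adjusted p = 0.158).

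Endothelial markers were also higher in the drug libraries. The summed level of 8 endothelial markers (Pecam1, Cdh5, Kdr, Tek, Cldn5, Emcn, Plvap and Vwf) was 167, 130 and 132 CPM with cisplatin, 139, 148 and 151 CPM with oxaliplatin, and 84.1, 89.5 and 104 CPM with vehicle, and 7 of the 8 rose with cisplatin (15.8% of all genes did) and 8 of the 8 with oxaliplatin (17.5% of all genes did). A list of 7 barrier endothelial genes other than Abcb1a summed to 414 to 427 CPM with cisplatin, 395 to 431 CPM with oxaliplatin and 353 to 379 CPM with vehicle. Leptomeningeal and perineurial markers summed to 545, 315 and 317 CPM with cisplatin and to 365, 502 and 503 CPM with oxaliplatin. With vehicle they summed to 210, 227 and 182 CPM. Cisplatin library 1 was the highest of its group in Abcb1a and in the endothelial and leptomeningeal sums. The other groups differed. Vehicle library 1 was the highest of its group in Abcb1a (25.3 CPM) and the lowest in the endothelial sum (84.1 CPM). Oxaliplatin library 2 was the highest in Abcb1a (34.2 CPM), and oxaliplatin library 3 in the endothelial (151 CPM) and leptomeningeal (503 CPM) sums. Markers of blood cells were also higher: 5 erythrocyte genes summed to 199, 183 and 91.0 CPM with cisplatin, 81.1, 189 and 197 CPM with oxaliplatin, and 36.5, 48.8 and 41.8 CPM with vehicle, and 6 neutrophil genes to 163 to 262, 85.2 to 197 and 41.2 to 96.5 CPM in the same groups. Sums of macrophage genes (64.6 to 79.0, 72.3 to 79.4 and 44.3 to 60.2 CPM), fibroblast genes (1746 to 1990, 1750 to 1874 and 1361 to 1573 CPM) and myelinating Schwann cell genes (4764 to 5920, 4482 to 4744 and 3452 to 4238 CPM) were higher in both drug groups than with vehicle too, and cisplatin library 1 was the highest of its group in the erythrocyte, neutrophil, macrophage and Schwann cell sums. Of the macrophage, fibroblast and Schwann cell genes 4 of 5, 5 of 5 and 6 of 6 were called higher with cisplatin. With oxaliplatin 3 of 5, 3 of 5 and 2 of 6 were, beside the shares of all genes given above. Satellite glia genes summed to 3277 to 3510, 3481 to 3690 and 2784 to 3124 CPM. Of these 6, 2 rose and 1 fell with cisplatin, and 1 each with oxaliplatin. Pericyte and smooth muscle sums were 351 to 387, 367 to 376 and 346 to 364 CPM, and cisplatin overlapped vehicle. Of these 6 genes, 3 were called higher with cisplatin and 4 with oxaliplatin, and none lower. The neutrophil sums overlapped vehicle with oxaliplatin. No marker of these lists was under 3 reads in every library. In whole ganglia, more cells of a type and more RNA per cell cannot be told apart, and the part of these cell types in the Abcb1a values was not tested.

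Neither of the nearest paralogues of Abcb1a was called with either drug. Abcb1b, the other mouse P-glycoprotein gene, had 3.92 ± 0.0692 CPM with cisplatin, 3.65 ± 0.668 CPM with oxaliplatin and 3.88 ± 0.148 CPM with vehicle. Abcb4, the gene of a phospholipid floppase of bile, had 12.2 ± 0.353 CPM with cisplatin, 13 ± 0.447 CPM with oxaliplatin and 12.9 ± 1.06 CPM with vehicle (SD, n = 3 each). Of the 75-base windows of Abcb1a, 12.5% also occur in these genes, and 553 of its exon bases are overlapped on the opposite strand by the predicted gene Gm42686.

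Abcc4 (ENSMUSG00000032849.14, chromosome 14, 118482692 to 118706219, minus strand) encodes MRP4, an exporter of cyclic nucleotides, prostaglandins and conjugated anions, and is the member whose start region is printed with capitals above. Its level was 26.9, 27.3 and 27.2 CPM with cisplatin, 29, 26.8 and 26.7 CPM with oxaliplatin, and 34.0, 30.3 and 30.9 CPM with vehicle. Every drug library was below every vehicle library. Abcc4 fell with cisplatin (log2 fold change -0.23 ± 0.06 SE, adjusted p = 0.0120, interval at 95% from -0.36 to -0.09) and with oxaliplatin (-0.21, SE 0.06, 95% interval -0.34 to -0.08, adjusted p = 0.0174), but the direction turned to 0.06 and 0.09 when libraries were scaled by their totals alone, which raised the median of all genes to 0.29 and 0.30. Against those medians Abcc4 was still the lower. The call was lost in 3 of 20 alternatives with cisplatin and in 7 of 20 with oxaliplatin. Without vehicle library 1 neither call was kept (cisplatin -0.15, adjusted p = 0.0943; oxaliplatin -0.13, adjusted p = 0.138), and with no filter on low counts neither was kept (cisplatin -0.19, adjusted p = 0.0518; oxaliplatin -0.16, adjusted p = 0.0989). The oxaliplatin call was also lost without oxaliplatin library 2 (adjusted p = 0.0643) and without oxaliplatin library 3 (adjusted p = 0.0706).

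Abcc1 (ENSMUSG00000023088.17, chromosome 16, 14361558 to 14475737, plus strand) encodes MRP1, an exporter of glutathione conjugates and leukotrienes. It had 28.9, 28.3 and 29.1 CPM with cisplatin, 31.0, 27.0 and 30.9 CPM with oxaliplatin, and 32.5, 28.2 and 37.4 CPM with vehicle. Vehicle library 2 lay among the drug libraries and the other two vehicle libraries above them. The log2 fold change was -0.20 with cisplatin (95% interval -0.39 to 0.00, adjusted p = 0.105) and -0.15 with oxaliplatin (95% interval -0.35 to 0.04, adjusted p = 0.191). Without vehicle library 2 Abcc1 was called lower with both drugs (-0.27, adjusted p = 0.0156, and -0.22, adjusted p = 0.0332), and its sign was positive, without a call, under library totals alone (0.09 and 0.14) and after removal of the trend with gene length and GC content (0.13 and 0.14).

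Abcc1 has the longest exon union of the 9 members, 15.1 kb, and long genes were lower in the drug libraries as a class. Genes of over 10 kb had a median log2 fold change of -0.34 with cisplatin and -0.33 with oxaliplatin, and those of 2 to 4 kb one of 0.08 and 0.09. Abcc4, with 6.39 kb, falls among the genes of 6 to 8 kb, whose medians were -0.11 and -0.12. After the trend was removed, Abcc4 was called with cisplatin and not with oxaliplatin (-0.15, adjusted p = 0.0659).

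Abcc2 (ENSMUSG00000025194.5, chromosome 19, 43782192 to 43840740, plus strand) encodes MRP2, the conjugate pump of the bile canaliculus and kidney tubule. It was counted at 4, 1 and 5 reads with cisplatin, 1, 5 and 4 reads with oxaliplatin, and 2, 0 and 1 reads with vehicle. With a floor of 3 reads per library, 2 of 3 cisplatin libraries, 2 of 3 oxaliplatin libraries and 0 of 3 vehicle libraries reached it. This floor corresponds to 0.071 to 0.086 CPM in the drug libraries and to 0.0975 to 0.188 CPM in the vehicle libraries. The drug libraries that reached it had 0.104 to 0.133 CPM, which is under the floor of vehicle library 2. Numbers of libraries at the floor therefore cannot be compared between drug and vehicle. Abcc2 was under detection in all vehicle libraries and detected throughout neither drug group, and no fold change was computed. The count of 0 in vehicle library 2 has an exact Poisson upper limit of 3.69 reads. All intervals on reads cover counting error only, because the reads carry no molecular identifiers.

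Abcg2 (ENSMUSG00000029802.13, chromosome 6, 58584523 to 58695676, plus strand) encodes BCRP, the multidrug pump of barrier endothelium and placenta. It was the most abundant member, with 115, 108 and 110 CPM with cisplatin, 121, 116 and 108 CPM with oxaliplatin, and 113, 106 and 111 CPM with vehicle. The 3 groups overlapped, and the log2 fold change was 0.01 with cisplatin (95% interval -0.10 to 0.13, adjusted p = 0.894) and 0.06 with oxaliplatin (95% interval -0.06 to 0.18, adjusted p = 0.387). After removal of the trend with gene length and GC content, Abcg2 was called higher with cisplatin (0.30, adjusted p = 0.000424) and with oxaliplatin (0.42, adjusted p = 3.57e-05). Its longest transcript has the lowest GC content of the members, 39.2%. Its exon union of 8.15 kb falls among the genes of 8 to 10 kb, whose medians were -0.20 with each drug. The parts of length and GC content in these calls were not tested.

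**Figure D2:**
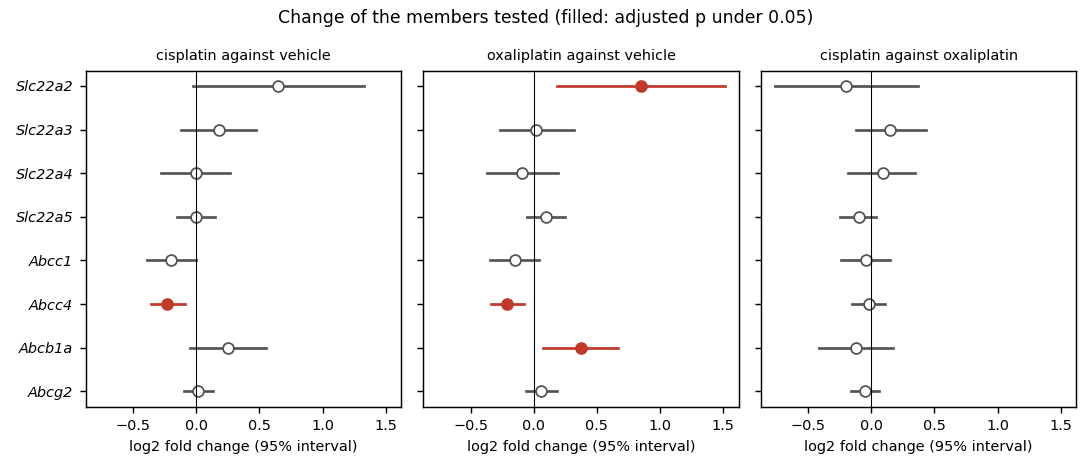
Log2 fold changes (points) with 95% intervals (lines) of the 8 members tested, for each drug against vehicle (left and middle panels) and for cisplatin against oxaliplatin (right panel); filled points have an adjusted p under 0.05 (edgeR, n = 3 libraries per group). Abcc4 is filled in the first 2 panels, Slc22a2 and Abcb1a only in the second, and no point is filled in the third.

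Set against each other as 1 pair at the same cumulative mass, the drugs gave no call among the 8 members tested (edgeR adjusted p from 0.817 to 0.969), where 2 of 17348 genes were called (0.0115%) and 1111 genes had an unadjusted p under 0.05 (6.40%). None of the 8 had an unadjusted p under 0.05, none was called by limma-voom or by DESeq2 (which gave Slc22a2 no adjusted p), and the cisplatin and oxaliplatin libraries overlapped for all 8, against 14.1% of genes that did not overlap. Intervals of the cisplatin minus oxaliplatin difference were narrow for Abcg2 (log2 difference -0.05, 95% interval -0.16 to 0.06), Abcc4 (-0.02, -0.15 to 0.11), Slc22a5 (-0.10, -0.25 to 0.04) and Abcc1 (-0.04, -0.24 to 0.15). They were wider for Slc22a4 (0.09, -0.18 to 0.35), Slc22a3 (0.15, -0.12 to 0.43) and Abcb1a (-0.12, -0.41 to 0.17), and widest for Slc22a2 (-0.20, -0.76 to 0.37). Slc22a2 and Abcb1a were called with oxaliplatin and not with cisplatin, and the test between the drugs called neither (adjusted p = 0.918 and 0.894).

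Levels of different genes were compared per kilobase of exon. Abcg2 was the highest in every group, with 13.6 CPM per kb with cisplatin, 14.1 with oxaliplatin and 13.5 with vehicle. Slc22a5 followed with 5.50, 5.90 and 5.48 CPM per kb in the same groups. Abcb1a came next in the drug groups, with 5.21 CPM per kb with cisplatin and 5.65 with oxaliplatin, ahead of Abcc4, and stood behind Abcc4 with vehicle, at 4.36. Abcc4 had 4.25 CPM per kb with cisplatin, 4.30 with oxaliplatin and 4.97 with vehicle. Below them stood Abcc1 (1.91, 1.96 and 2.17), Slc22a4 (1.46, 1.38 and 1.45), Slc22a3 (0.693, 0.625 and 0.623), Slc22a2 (0.379, 0.435 and 0.245) and Abcc2 (0.0106, 0.00963 and 0.00420), each as CPM per kb with cisplatin, oxaliplatin and vehicle. The ranges of neighbours in this order overlapped only between Slc22a5 and the member after it. The place of Slc22a5 rests on the exon union: it had rank 3 by the longest transcript and rank 5 by CPM in every group. By CPM without length Abcc1 had rank 2 with cisplatin and vehicle and rank 3 with oxaliplatin, and by the length of its longest transcript (6792 bases) it had rank 4 with vehicle, where by its exon union it had rank 5.

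**Figure D3:**
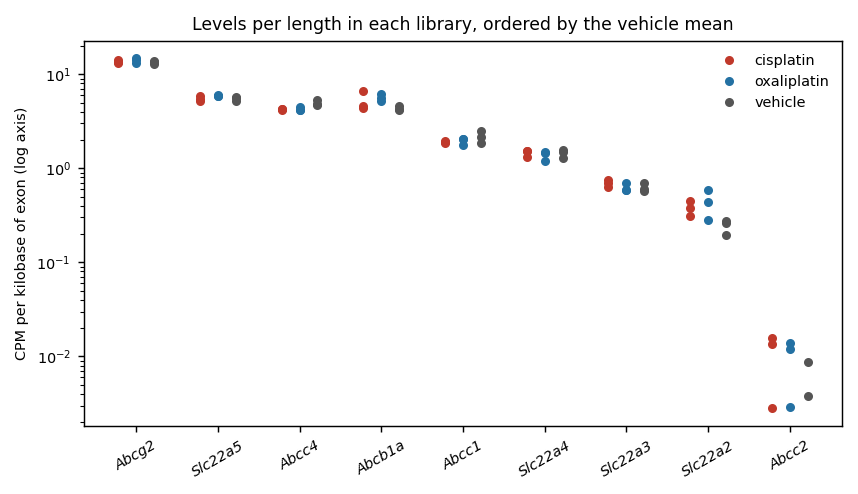
Level of each member in CPM per kilobase of exon union (logarithmic axis), ordered by the vehicle mean; each point is a library, with cisplatin left, oxaliplatin in the middle and vehicle right. Abcg2 stands above and Abcc2 below all other members in every group; the vehicle library with 0 Abcc2 reads cannot be drawn on this axis.

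The genes whose pattern over the 9 libraries was most like that of a member were found by the root-mean-square difference of centred log2 CPM among 13380 genes. For Abcc4 they were Avl9 and Edem1, at 0.0211 and 0.0216 log2 units, where Abcc4 itself spread by 0.115 about its mean. For Abcb1a they were Afap1l1 and Klf4, at 0.0937 and 0.0941 log2 units, with a spread of 0.230. For Abcg2 they were Terf2ip and Utp6, for Abcc1 Zcchc14 and Sptb, for Slc22a5 Hspbp1 and Tmem241, and for Slc22a3 Itgb4 and Pdcd5. Slc22a2, with a mean under 1 CPM, was not matched. These are descriptions over 9 libraries that share their treatment groups.

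Of 11 tested genes among the other SLC22, MATE and monoamine carriers, 3 rose and 2 fell with cisplatin, and 3 rose and 1 fell with oxaliplatin, with medians of -0.11 and 0.08. For this and the 5 lists after it, the shares over all genes are 15.8% higher and 22.9% lower with cisplatin, and 17.5% higher and 24.1% lower with oxaliplatin, and no list is set apart from them by a test. Slc22a6, the organic anion carrier OAT1, had 2.12 ± 0.991 CPM with cisplatin, 2.81 ± 0.648 CPM with oxaliplatin and 0.625 ± 0.176 CPM with vehicle, log2 fold changes of 1.68 (adjusted p = 0.00444) and 2.11 (adjusted p = 0.000820). Slc22a8, the anion carrier OAT3, had 3.59 ± 1.43 CPM with cisplatin, 4.40 ± 0.414 CPM with oxaliplatin and 1.37 ± 0.259 CPM with vehicle, log2 fold changes of 1.41 and 1.71. Slc47a1, the proton-coupled cation exporter MATE1, had 24.4 ± 4.71 CPM with cisplatin, 30.2 ± 4.20 CPM with oxaliplatin and 16.1 ± 5.54 CPM with vehicle. Its change of 0.92 with oxaliplatin had an adjusted p of 0.00520; that of 0.61 with cisplatin had one of 0.0430, in libraries that overlapped vehicle, 0.0532 without vehicle library 2 and 0.0704 after trend removal. These 3 genes are also among the 7 leptomeningeal and perineurial markers whose sums are given with Abcb1a; the part of those cells in their values was not tested. Slc29a4, the plasma membrane monoamine transporter, was lower with both drugs, at 17.6 ± 1.88 CPM with cisplatin and 16.4 ± 0.920 CPM with oxaliplatin against 24.9 ± 0.329 CPM with vehicle (log2 fold changes -0.50 and -0.60); under library totals alone neither was called (-0.22, adjusted p = 0.238, and -0.30, adjusted p = 0.0884). Slc22a17, a receptor for lipocalin iron complexes that was named after its value was seen, fell by 0.17 on the log2 scale with cisplatin.

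Of 7 tested ABCB and ABCC exporters outside the members, none rose and 2 fell with each drug, and the medians were 0.01 and 0.00. Abcc5, an exporter of cyclic nucleotides and glutamate conjugates, had 180 ± 12.3 CPM with cisplatin, 195 ± 19.0 CPM with oxaliplatin and 265 ± 19.2 CPM with vehicle (log2 fold changes -0.56 and -0.44). Abcc10, a broad drug exporter, had 5.86 ± 0.295 CPM with cisplatin, 5.49 ± 0.281 CPM with oxaliplatin and 7.56 ± 0.906 CPM with vehicle (-0.39 and -0.48). Under library totals alone these 4 changes kept their sign and none was called, and after trend removal those of Abcc5 were -0.34 and -0.25.

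Of 9 tested organic anion transporting polypeptides, 2 rose and 2 fell with each drug, with medians of 0.12 and 0.16. Slco2b1, a carrier of steroid sulfates, had 19.3 ± 2.36 CPM with cisplatin, 18.0 ± 0.636 CPM with oxaliplatin and 11.8 ± 0.622 CPM with vehicle, log2 fold changes of 0.72 and 0.62. Slco2a1, the prostaglandin carrier, rose by 0.37 and 0.36 on the same scale, and by 0.66 and 0.62 after trend removal. Slco5a1, a member with no settled substrate, fell to 54.2 ± 4.47 CPM with cisplatin and 57.0 ± 8.33 CPM with oxaliplatin, against 86.4 ± 10.5 CPM with vehicle (log2 fold changes -0.68 and -0.61). These were -0.32 and -0.26 after trend removal, and under library totals alone -0.40 with cisplatin and, without a call, -0.32 with oxaliplatin (adjusted p = 0.0701). Slco3a1, a carrier of prostaglandins and thyroid hormone, had log2 fold changes of -0.28 and -0.28 that became 0.01 and 0.02 under library totals alone, and the cisplatin call was lost after trend removal (adjusted p = 0.0661).

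Of 8 tested xenobiotic sensors and their partners, 2 rose and 3 fell with each drug, and the medians were -0.04 and -0.01. Ahr, the aryl hydrocarbon receptor, and its partner Arnt, which bind the element with the core GCGTG, were lower: Arnt at 20.0 ± 0.350 CPM with cisplatin and 18.4 ± 1.06 CPM with oxaliplatin against 26.1 ± 0.506 CPM with vehicle, and Ahr at 20.8 ± 1.48 and 19.2 ± 1.25 CPM against 24.9 ± 0.213 CPM. Under library totals alone Ahr turned to 0.03 with cisplatin and neither gene was called, and after trend removal the Ahr call with cisplatin was lost (adjusted p = 0.0883). Nfe2l2, the NRF2 factor of the antioxidant response, fell by 0.17 with cisplatin and by 0.19 with oxaliplatin on the log2 scale, and turned to 0.13 and 0.12 under library totals alone. Rxra, the shared partner of nuclear receptors, had log2 fold changes of 0.20 and 0.23. Without vehicle library 2 the cisplatin calls of Rxra (0.16, adjusted p = 0.0848) and Nfe2l2 (-0.14, adjusted p = 0.0622) were lost. Nr1i3, the CAR receptor, with a mean under 1 CPM and named after its values were seen, had 0.78 and 0.80. Nr1i2, the PXR receptor that drives P-glycoprotein in liver and gut, was too low to be tested.

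Of 6 tested scaffold and kinase genes, 2 rose and 1 fell with each drug, with medians of 0.04 and -0.02. Msn, the gene of moesin, which links membrane proteins to actin, had 217 ± 22.6 CPM with cisplatin, 196 ± 11.4 CPM with oxaliplatin and 316 ± 14.7 CPM with vehicle (log2 fold changes -0.55 and -0.69); under library totals alone these were -0.26 (adjusted p = 0.182) and -0.39 (adjusted p = 0.0363). Slc9a3r2, a PDZ scaffold, rose to 102 ± 2.24 CPM with cisplatin and 105 ± 1.89 CPM with oxaliplatin, against 81.4 ± 6.70 CPM with vehicle, and Ezr, the gene of ezrin, had log2 fold changes of 0.21 and 0.20. Removal of the length and GC trend ended both Ezr calls (0.11, adjusted p = 0.175, and 0.10, adjusted p = 0.211). Of 5 tested genes of carnitine handling, 1 rose and none fell with each drug: Slc25a20, the mitochondrial carnitine-acylcarnitine carrier, with 26.0 ± 0.160 CPM with cisplatin, 27.3 ± 1.70 CPM with oxaliplatin and 21.6 ± 0.863 CPM with vehicle (log2 fold changes 0.26 and 0.33). The medians of that list were -0.02 and 0.02, and Slc22a5, the plasma membrane carnitine carrier, was not called with either drug. None of the genes of the 6 lists was called between the drugs.

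**Figure D4:**
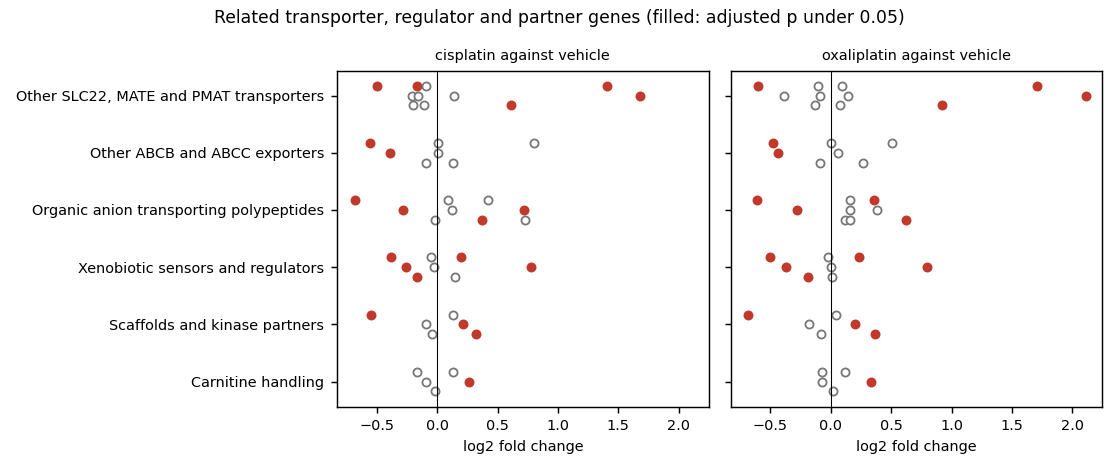
Log2 fold changes of the tested genes in 6 lists of related transporters, regulators and partners, for cisplatin against vehicle (left) and oxaliplatin against vehicle (right); each point is a gene, and filled points have an adjusted p under 0.05. The rightmost filled points in the first row are Slc22a6 at 1.68 and 2.11.

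The split of calls by direction depended on the library scale. With TMM scaling, 40.9% of the genes called with cisplatin and 42.1% of those called with oxaliplatin were higher, and with library totals alone 86.7% and 86.5% were higher. Under library totals alone Slc22a2 (0.93, adjusted p = 0.0128), Abcb1a (0.54, adjusted p = 0.00217) and Slc22a3 (0.46, with an adjusted p at the threshold) were called higher with cisplatin. With oxaliplatin the same setting called 4 members higher, namely Slc22a2 (1.13, adjusted p = 0.00171), Abcb1a (0.67, adjusted p = 0.000118), Slc22a5 (0.40, adjusted p = 0.0225) and Abcg2 (0.36, adjusted p = 0.0443).

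**Figure D5:**
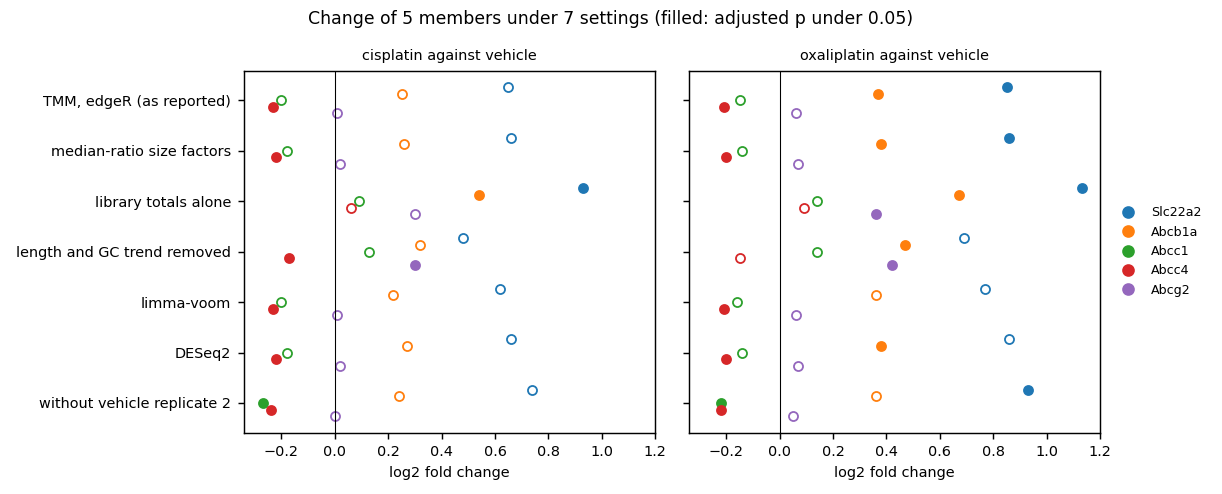
Log2 fold change of 5 members under 7 settings, for cisplatin against vehicle (left) and oxaliplatin against vehicle (right); filled points have an adjusted p under 0.05. Abcc4 lies left of 0 in every setting shown except library totals alone, and Slc22a2 lies right of 0 in all 7.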

How the data were processed

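The deposited files hold raw read counts per gene symbol for each of the 9 libraries, with no normalization by the authors. Per the labels, libraries were made from total RNA with a stranded kit and sequenced as single-end reads of 75 nucleotides. Per the submitters' processing notes, STAR, SAMtools and HTSeq were used with the build mm10 (GRCm38); the annotation and strand setting of the counting were not given in the sources used here, and reads of overlapping antisense genes cannot be told apart. The 5 summary rows for reads that no single gene received (42.8 to 74.5% of recorded reads) were left out. Gene positions and lengths came from GENCODE M21 by symbol.

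All 9 libraries were fitted together with edgeR 4.0.16 (limma 3.58.1, R 4.3.3): TMM scaling, filterByExpr, 1 term per group and the quasi-likelihood F test, two-sided, with Benjamini-Hochberg adjustment over 17348 genes. The standard error is |log2 fold change| divided by the root of F. Alternatives were other scalings and filters, limma-voom, DESeq2 1.42.0, a block for replicate number, removal of each library's trend with length and GC content, fits of 2 groups only, leaving out each library, and a fit without mitochondrial, small or structural RNAs; ranking levels by the longest transcript was chosen after seeing the data. On simulated counts the procedure recovered 69% (cisplatin against vehicle) and 67.5% (oxaliplatin against vehicle) of 200 genes changed by 1.5-fold. Of the calls in these simulations 4.83% and 4.26% were false. With changes of 2-fold, 81% and 78.5% were recovered, and 5.81% and 6.55% of the calls were false. Between the drugs the false share was 4.11% at 1.5-fold and 8.02% at 2-fold. The simulated counts held no trend with gene length or GC content. In the data 6715 and 7221 genes were called, far more than the 200 changed in a simulation. The recovered and false shares therefore need not carry over.

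The 9 members and the 6 gene lists were chosen with earlier results of these data known. Besides the members, genes named by rule are at most 4 per list, those of smallest p among called genes whose mean reached 1 CPM, and the 2 genes most like each member; cell type markers, paralogues and overlapping genes are named beside the values they touch, and Slc22a17, Nr1i3 and Nr1i2 were named after their values were seen. The genes most like Slc22a4 are not reported here.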

Additional observations from a re-analysis of the deposited data

How the results depend on the processing

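Each count of calls and each log2 fold change of a member was recomputed under 20 alternatives (19 for Slc22a2 between the drugs, where DESeq2 gave no adjusted p), and the list genes under 3. Members called with cisplatin numbered 1 as reported, 3 under library totals alone, 2 after removal of the length and GC trend, with or without the replicate block, and 0 to 2 when 1 library was left out (0 without vehicle library 1, 2 without vehicle library 2). With oxaliplatin they numbered 3 as reported, 4 under library totals alone, 1 with limma-voom and 2 after removal of the length and GC trend, with or without the replicate block. They numbered 0 to 3 when 1 library was left out (0 without oxaliplatin library 2 or vehicle library 1). After trend removal alone, the oxaliplatin calls were Abcb1a and Abcg2, and those of Slc22a2 (edgeR adjusted p = 0.0999) and Abcc4 (adjusted p = 0.0659) were lost. Between the drugs no member was called under any alternative, while all genes called numbered 2 as reported, 68 under library totals alone, 16 with no filter, 1 with a filter of 1 CPM or with limma-voom, 14 with DESeq2, 0 with the replicate block (also after trend removal) or with fits of 2 groups only, and 0 to 2 when 1 library was left out. The labels were not read as pairs. Deviations of same-numbered libraries correlated at -0.405 to 0.412, and those of differently numbered libraries at -0.457 to 0.468. With 3 libraries per group these values cannot decide whether replicate numbers mark pairs. With the replicate block, Slc22a2 was at 0.79 with oxaliplatin (adjusted p = 0.0501), and members called numbered 1 with cisplatin and 2 with oxaliplatin. Some log2 fold changes changed sign, none of them with a call in the new direction. With cisplatin, Slc22a4 was at 0.27 under library totals, 0.04 with no filter, 0.02 with the 1 CPM filter and 0.01 with median-ratio factors, DESeq2 or structural RNAs removed, and Slc22a5 was at 0.29, 0.04, 0.03, 0.01, 0.01 and 0.02 under the same settings and at 0.00 with the replicate block or with 2 groups only. Abcc1 was at 0.09 (cisplatin) and 0.14 (oxaliplatin) under library totals, at 0.13 and 0.14 after trend removal, and at 0.14 and 0.14 with trend removal and the replicate block. Abcc4, called at -0.23 and -0.21 as reported, was at 0.06 and 0.09 under library totals, without a call. With oxaliplatin, Slc22a3 was at -0.01 after trend removal, with or without the block, and Slc22a4 at 0.20 under library totals. Leaving out 1 library gave ranges across 0: cisplatin against vehicle, -0.05 to 0.06 for Slc22a4, -0.05 to 0.07 for Slc22a5, -0.01 to 0.05 for Abcg2; oxaliplatin against vehicle, -0.06 to 0.11 for Slc22a3, -0.15 to 0.03 for Slc22a4; cisplatin against oxaliplatin, -0.42 to 0.07 for Slc22a2, -0.01 to 0.15 for Slc22a4, -0.04 to 0.02 for Abcc4. The cause of these shifts was not tested. Depth limits Abcc2 and Slc22a2.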
